A study of Mus musculus with 10 samples.

Results

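Fibroblasts cocultured with group 2 innate lymphoid cells (ILC2s) that lack IL-13 were compared with fibroblasts cultured alone. The comparison rests on 7 of the 10 libraries of the series, chosen by their labels: 3 cocultures with IL13KO ILC2s (IL13KO coculture) and 4 monocultures. Fibroblasts with wild-type ILC2s (WT coculture) make up the other 3 libraries, which entered the estimate of spread and give values set beside those of the IL13KO coculture. Starting fibroblasts had been sorted from mice for podoplanin and PDGFRα and against CD45, EpCAM and CD31, and the ILC2s for KLRG1 and against lineage markers. Fibroblasts were sorted once more after the culture, and their RNA was sequenced in bulk. The series title places the niche it studies in the pancreas. All libraries carry the genotype C57B6, with IL13KO or WT naming the ILC2s, and the labels describe neither the Il13 allele nor an age, time in culture or ratio of cells. No label names an animal or a culture, so p-values measure the spread between these libraries, which may be technical. The second sort is described with a CD45+ gate, although the starting fibroblasts had been sorted for the absence of CD45, a leukocyte antigen. In bulk RNA, fewer cells of a type and less RNA per cell cannot be told apart. Values of single libraries are listed in the order monoculture 1 to 4 and IL13KO coculture 1 to 3.

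ILC2s are tissue lymphocytes without antigen receptors that respond to alarmins such as IL-33 from stromal cells and secrete IL-5, IL-13 and growth factors. IL-13 acts on fibroblasts through a receptor of IL-4Rα and IL-13Rα1, which activates the transcription factor STAT6 and raises eotaxin and matrix genes. Fibroblasts marked by Pi16 are described as progenitors that lie around vessels, and those marked by Col15a1 as a parenchymal state.

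The labels were checked first. No read of Il13 was counted in any IL13KO coculture or monoculture, against 30, 120 and 121 reads in the 3 WT cocultures. Il5, another ILC2 cytokine gene, had 30, 64 and 12 reads in the IL13KO cocultures and 0 in the monocultures, a level at least 33.7-fold higher with a floor of 3 counts over the 4 monocultures. The 12 pan-leukocyte markers summed to 39.8 to 46.9 CPM (the read count relative to TMM-normalised library size) in the IL13KO cocultures, 20.1 to 25.7 in the monocultures and 121.5 to 160.6 in the WT cocultures. Ptprc, the gene of CD45, had 1 read over the IL13KO cocultures and 0 in the monocultures, and 5 of the 12 markers were at 0 in all monocultures. Markers of macrophages and monocytes summed to 58.4 to 65.9 CPM in the monocultures and to less, 35.4 to 37.1, in the IL13KO cocultures, and Schwann cell markers to 50.5 to 67.8 and to more, 156 to 165, nearly all of it from Ncam1 (54.5 ± 7.47 and 159.7 ± 4.75 CPM), the 1 of 3 tested Schwann cell markers that was called. The sums were 138 to 171 and 182 to 189 CPM for ductal epithelium, 130 to 174 and 191 to 219 for pericytes and stellate cells, 33.6 to 163 and 111 to 239 for mesothelium, and 14.7 to 23.8 and 13.0 to 13.9 for acinar cells. Of 7 mesothelial markers tested, Wt1 and Lrrn4 were higher and Nkain4 lower, with log2 fold changes of 1.85 for Wt1 and -0.93 for Nkain4. Lrrn4 had 365 reads over the IL13KO cocultures and 0 in the monocultures, a level at least 116-fold higher by the same floor. The counts give no size beyond that bound. Without IL13KO coculture 2, Lrrn4 had an adjusted p of 0.0455 in edgeR's quasi-likelihood test, against 0.0107 with all libraries. Endothelial markers (5 of 8 with an entry in the counts) reached at most 6.29 CPM in these 7 libraries. The T and B cell list, with 1 of 10 entered, reached 13.3, and neutrophils, mast cells and eosinophils (2 of 9) 0.645. Only 6 of 11 macrophage and monocyte, 4 of 6 Schwann cell, 3 of 9 acinar and 0 of 7 islet markers had an entry. The part of such cells in the results was not tested. The 10 fibroblast markers summed to 7730 to 10600 CPM in the monocultures and 22270 to 27480 in the IL13KO cocultures, with 5 of them higher and 3 lower as counted and 5 higher and 4 lower after the correction described below. Among them Pdgfra stood at 372 ± 4.82 CPM (mean ± SD, n = 4) in monoculture and 747 ± 86.6 (n = 3) in the IL13KO coculture, and Pdpn at 259 ± 27.8 and 285 ± 16.6. Collagen genes carried the rise in the summed level, chiefly Col1a1 (1070 ± 413 and 11570 ± 1315 CPM), with Col3a1 and Col1a2. Dcn and Lum, also on the list, fell as counted. Total counts were 10710410 to 14366199 in the monocultures and 17277432 to 17661229 in the IL13KO cocultures, so 3 counts corresponded to 0.211 to 0.277 and 0.170 to 0.171 CPM. Intervals and floors cover counting error only.

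Fibroblasts with IL13KO ILC2s held several-fold more transcript of Pi16, of the eotaxin gene Ccl11, of the receptor chain Il4ra, of the cytokine signalling inhibitor Socs3 and of Col1a1, and less of asporin (Aspn), of the neuronal regeneration-related gene Nrep, of Id3 and of the interferon-induced genes Isg15, Ifit1, Ifit3 and Gbp3. In edgeR's quasi-likelihood test, 9384 of 16344 genes tested (57.4%) passed a Benjamini-Hochberg adjusted p of 0.05, with 4927 (30.1%) higher and 4457 (27.3%) lower in the IL13KO coculture. With upper-quartile scaling 4490 were higher and 5263 lower, so the larger of these directions depends on the scaling. Below, rose and fell are used of genes called by this test or by its repeat after correction. Of the genes called with a fitted change of at least 2-fold, 3198 (19.6%) were higher and 811 (4.96%) lower. The groups did not overlap in CPM for 59.2% of genes, 30.9% with all cocultures above all monocultures and 28.3% with all below. A call or a separation of the groups is therefore the common state in these data, and the counts for gene groups below are to be read against these shares.

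Fold changes followed the composition of the transcripts. Across the 16313 genes with an annotated transcript, Spearman's rho of the log2 fold change was 0.404 with the GC content of the longest transcript and 0.322 with its length, while GC content and length themselves were related by a rho of -0.205. These relations are across genes of the same libraries and have no p. In the lowest GC decile (28.1 to 41.7% GC) 6.78% of genes rose and 46.5% fell, with a median log2 fold change of -0.46, whereas in the highest (58 to 82.9% GC) 59.4% rose and 9.96% fell, with a median of 1.12. The shortest decile (36 to 671 bases) had a median of -0.53 and the 9th (4652 to 6195 bases) of 0.43, and the longest decile stood at 0.36. Combining both properties, 5.54% of genes rose and 49.0% fell among short transcripts of low GC content, and 76.2% rose and 2.94% fell among long transcripts of high GC content, where the median was 1.63. The GC content of the promoter was more weakly related to the fold change, with a rho of 0.148 over 10637 genes.

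**Figure D1:**
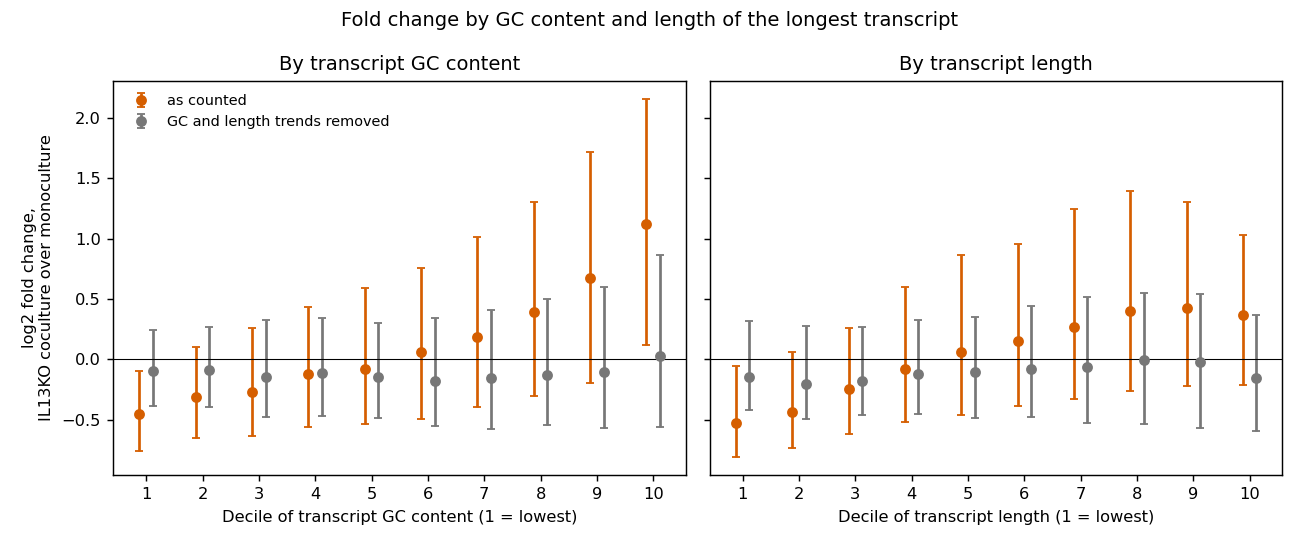
Points are median log2 fold changes of IL13KO coculture over monoculture and bars the 25th to 75th percentiles of genes, by decile of transcript GC content (left) and length (right), as counted (orange) and with the trends removed (grey). As counted, the median rose from -0.46 to 1.12 across the GC deciles, and with the trends removed it lay between -0.18 and 0.03.

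The transcripts of Aspn, Col1a1 and Col1a2 are shown for the range of composition that the comparison spans. Each stretch is the central 120 coding bases of the longest GENCODE M21 transcript, 5′ to 3′, with G and C in capitals.
Aspn, bases 782 to 901 of the transcript, 36.7% GC: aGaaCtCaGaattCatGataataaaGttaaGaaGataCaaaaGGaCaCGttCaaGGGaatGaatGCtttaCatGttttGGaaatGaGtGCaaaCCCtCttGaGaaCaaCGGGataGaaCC
Col1a1, bases 2266 to 2385, 60.8% GC: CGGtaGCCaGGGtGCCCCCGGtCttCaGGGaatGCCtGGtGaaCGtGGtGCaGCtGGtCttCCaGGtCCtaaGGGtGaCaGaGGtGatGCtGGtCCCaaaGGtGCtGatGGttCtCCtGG
Col1a2, bases 2346 to 2465, 64.2% GC: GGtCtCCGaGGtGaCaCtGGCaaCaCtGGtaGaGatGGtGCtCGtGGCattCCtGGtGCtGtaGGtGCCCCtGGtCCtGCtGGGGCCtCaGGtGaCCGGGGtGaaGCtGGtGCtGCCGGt
Aspn, of the AT-rich kind, had the largest fitted fall of the genes named, and both collagen I chains, of the GC-rich kind, rose, but by very different amounts as given below.

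The trend separated the libraries by group and also varied within the monocultures. The balance of a library between GC classes was taken from each gene's log2 CPM minus its mean over all libraries, as the median over the highest GC decile minus the median over the lowest. It was -1.34, -0.83, -0.32 and -0.89 in monocultures 1 to 4, 0.60, 0.71 and 0.65 in IL13KO cocultures 1 to 3, and 0.37 to 0.70 in the WT cocultures. The matching balance of long over short transcripts lay between -0.49 and -0.35 in the monocultures, between 0.35 and 0.51 in the IL13KO cocultures and between 0.03 and 0.34 in the WT cocultures. Depth and other library measures moved with it. Transcripts of ribosomal proteins took 3.43 to 3.79% of counts in monoculture and 2.10 to 2.33% in the IL13KO coculture, mitochondrial transcripts 0.548 to 0.798% and 0.444 to 0.503%, and 18874 to 19402 against 20525 to 20673 genes had a read. These measures, the trends and the presence of ILC2s coincide with the groups, so that their parts cannot be told apart. Thinned to equal depth, the libraries gave 8948 called genes.

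**Figure D2:**
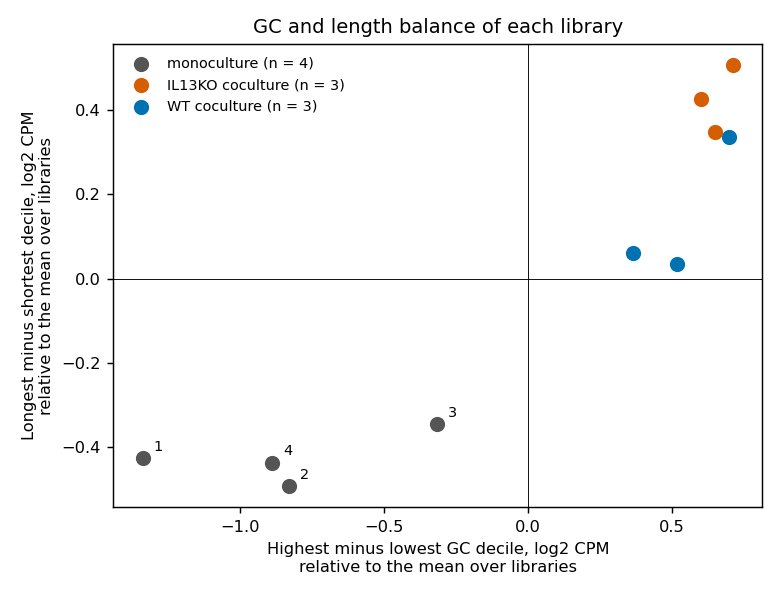
Each point is a library, placed by its balance of high over low GC transcripts (horizontal) and of long over short transcripts (vertical), both in log2 CPM relative to the mean over libraries; numbers name the monocultures. Monocultures lie at -1.34 to -0.32 on the GC axis and the IL13KO cocultures at 0.60 to 0.71, with no overlap on either axis.

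The trends were then fitted in every library by local regression and removed, and the same test was repeated. With the trends removed 7652 of 16313 genes (46.9%) were called, 3124 (19.2%) higher and 4528 (27.8%) lower, and the median fold change of all genes moved from 0.0017 to -0.11. Higher genes were 52.5% of the calls as counted and 40.8% with the trends removed. In both fits 2704 genes were called higher and 2993 lower. Another 1912 of the genes that rose and 1454 of those that fell lost the call, 300 changed from higher to lower and 2 from lower to higher. The correction assumes that no real change follows GC content or length, so both values are given for the pathway groups below, as counted first.

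**Figure D3:**
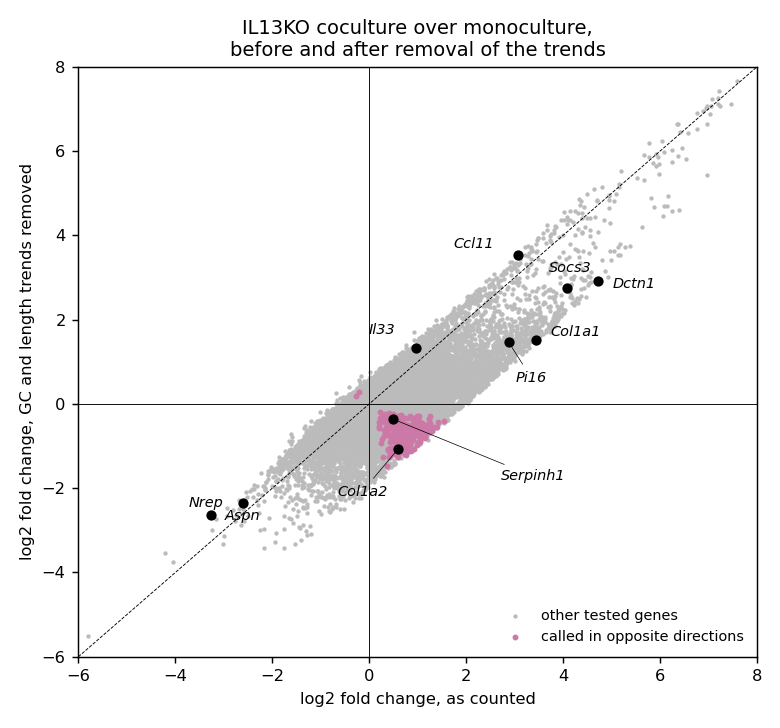
Each point is a tested gene, placed by its log2 fold change of IL13KO coculture over monoculture as counted (horizontal) and with GC and length trends removed (vertical); 5 genes lie outside the axes. Ccl11 and Il33 lie above the dashed line of equal values, Pi16, Col1a1, Socs3 and Dctn1 below it, and Col1a2 and Serpinh1 are among the genes in pink that are called in opposite directions.

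The list of type 2 cytokine response genes holds genes that IL-4 and IL-13 raise, parts of their receptors and inhibitors of cytokine signalling, some of which other cytokines also raise. Of 16 tested, 11 rose and 0 fell in the IL13KO coculture, with a median log2 fold change of 2.60, and 11 rose and 0 fell with the trends removed, at a median of 1.19. Ccl11 (ENSMUSG00000020676, chromosome 11 from 82057823 to 82062955 on GRCm38), which attracts eosinophils, stood at 116, 111, 86.8 and 86.6 CPM in monocultures 1 to 4 and at 752, 902 and 868 in IL13KO cocultures 1 to 3. Every coculture lay above every monoculture, and the log2 fold change was 3.07 ± 0.13 (± SE, adjusted p = 3.3e-08) as counted and 3.54 ± 0.11 with the trends removed. In the WT coculture Ccl11 reached 5938 ± 811 CPM, and the log2 difference of IL13KO minus WT was -2.82 ± 0.15. Of the 16 genes 8 were lower than in the WT coculture and 2 higher, where 11.6% of all genes were lower and 11.7% higher. The differences from monoculture and from WT coculture share the IL13KO libraries.

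The receptor and signalling chain of the pathway moved with it. Il4ra, the chain shared by the IL-4 and IL-13 receptors, had 48.2, 48.4, 76.2 and 46.5 CPM in monoculture and 824, 838 and 840.5 in the IL13KO coculture, with no overlap (3.93 ± 0.23; 2.27 ± 0.13 with the trends removed). In contrast to Ccl11, Il4ra stood at 597 ± 206 CPM in the WT coculture, where the difference from the IL13KO coculture was not called (0.48 ± 0.23). Stat6 rose from 23.3 ± 10.6 to 144 ± 5.92 CPM, Il13ra1, the signalling chain, from 126 ± 22.9 to 179 ± 9.72, and Il13ra2, the decoy receptor, from 4.43 ± 1.96 to 56.4 ± 8.19. With WT ILC2s Il13ra2 stood higher still, at 462 ± 56.2. Postn, the matrix protein periostin, was not called (-0.16 ± 0.27), nor were the eotaxin gene Ccl24 (-0.37 ± 0.25) and the adhesion molecule gene Vcam1 (0.079 ± 0.11). The chitinase-like gene Chil4 had 0 reads in the IL13KO coculture and 1 in monoculture, against 285 ± 116 CPM in the WT coculture.

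Il1rl1, which encodes the IL-33 receptor and is also an ILC2 marker, rose from 7.35, 6.67, 4.98 and 8.58 to 12.5, 18.9 and 16.95 CPM, far below its 1299 ± 133 in the WT coculture. Arg1 had 20 reads in the IL13KO coculture and 1 in monoculture, a ratio of 19.1 with an exact 95% counting interval of 3.05 to 791. Both genes are also expressed by ILC2s, whose markers rose in 6 of 9 tested as counted and in 5 after correction, and summed to 317 to 359 CPM in the IL13KO coculture and to 182.9 to 241 in monoculture, most of it from Thy1 (136 ± 28.4 and 255 ± 20.7 CPM) and Rora (63.7 ± 5.16 and 55.2 ± 3.09), which fibroblasts express. Il13, which these ILC2s lack, was at 0 and Klrg1 at 4, 1 and 0 reads in the IL13KO cocultures. More reads came from Il2ra, with 87 over the IL13KO cocultures and 1 over the monocultures. That is a level 83-fold higher, or 14.5-fold at the lower 95% limit of counting error. The part of ILC2 RNA in these values was not tested.

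The list also holds inhibitors of cytokine signalling. Socs3 (chromosome 11 from 117966079 to 117970047), an inhibitor of JAK and STAT signalling induced chiefly by STAT3, stood at 15.9, 22.4, 29.7 and 15.5 CPM in monoculture and 369, 352 and 332 in the IL13KO coculture, the groups lying far apart (4.08 ± 0.22, adjusted p = 1.19e-07; 2.74 ± 0.14 with the trends removed). Socs1 rose from 15.1 ± 6.12 to 96.5 ± 9.07 CPM and Cish from 1.16 ± 0.395 to 10.9 ± 2.39. The promoter of Socs3 is shown because it is one of 4 among 13 matched genes of the list with the palindrome TTCNNNGAA, the core of a STAT site, in the 250 bases before the RefSeq start. The match is in capitals, 154 bases before the start, and 7.02% of 32851 mouse promoter windows of this length hold such a match on either strand. The other holders, Ccl17, Chil3 and Chil4, were not called or not tested.
Socs3, chr11:117969367-117969616, minus strand, GRCm38.p6, RefSeq: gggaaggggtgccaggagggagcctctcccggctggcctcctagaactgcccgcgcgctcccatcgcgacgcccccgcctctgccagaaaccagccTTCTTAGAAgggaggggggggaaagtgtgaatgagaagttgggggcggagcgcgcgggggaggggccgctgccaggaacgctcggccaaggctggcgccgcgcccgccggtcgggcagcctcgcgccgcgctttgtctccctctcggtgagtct

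Inflammatory genes driven by NF-κB, the transcription factor family activated by cytokines such as TNF and IL-1, rose in 11 of 18 tested and fell in 1, and these counts were the same with the trends removed (median 0.93 and 0.69). Bcl3, a nuclear partner of NF-κB, stood at 4.05, 3.63, 9.68 and 4.78 CPM in monoculture and 36.2, 63.4 and 66.4 in the IL13KO coculture (3.34 ± 0.32; 2.22 ± 0.25 with the trends removed), without overlap. Nfkb2, the gene of the p52 subunit, rose from 5.08 ± 1.73 to 28.3 ± 2.25 CPM and had a smaller change with the trends removed (2.49 ± 0.23 and 0.66 ± 0.19). In a fit of only the 2 groups compared, with the trends removed and a block for replicate number, Nfkb2 was not called (0.65). Fewer genes of the list rose in that fit, as given in the closing section. Icam1, a leukocyte adhesion receptor, rose by 1.19 ± 0.13 as counted but was not called with the trends removed (0.32 ± 0.14).

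The transcripts of Nfkb2 and Bcl3 are 59.4% and 62.6% GC, and chemokine genes of lower GC content moved in the other direction under the correction. Ccl2, which draws monocytes, rose from 365 ± 51.8 to 653 ± 47.4 CPM, Ccl7 from 750.0 ± 144 to 1438 ± 65.1 and the neutrophil chemokine gene Cxcl5 from 304 ± 65.3 to 580.3 ± 39.4. Their transcripts are 43.4%, 42.95% and 37.8% GC, and their log2 fold changes of 0.84, 0.94 and 0.93 were larger with the trends removed, at 1.27, 1.38 and 1.51. Cxcl1 (0.04 ± 0.15) and Il6 (0.22 ± 0.13) were called as higher only in the corrected fit (0.43 ± 0.13 and 0.72 ± 0.10). Nfkbia, the inhibitor that NF-κB induces, was not called in either fit (0.055 ± 0.091 and 0.051 ± 0.087), and Saa3, a serum amyloid gene, fell (1373 ± 199 and 764 ± 90.2 CPM). Against the WT coculture 11 of the 18 genes were lower.

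The NF-κB motif GGGANTTTCC was found on either strand before a RefSeq start of 5 of 17 matched genes of this list. They are Nfkb2, Nfkbia, Cxcl1, Cxcl2 and Il6. As counted, Nfkb2 rose and the others were not called, while Cxcl1 and Il6 were called higher with the trends removed. The motif occurs in 0.356% of the 32851 promoter windows. The stretch before 1 of the 3 RefSeq starts of Nfkb2 is printed with the match in capitals, 225 bases before the start.
Nfkb2, chr19:46305680-46305929, plus strand, GRCm38.p6, RefSeq: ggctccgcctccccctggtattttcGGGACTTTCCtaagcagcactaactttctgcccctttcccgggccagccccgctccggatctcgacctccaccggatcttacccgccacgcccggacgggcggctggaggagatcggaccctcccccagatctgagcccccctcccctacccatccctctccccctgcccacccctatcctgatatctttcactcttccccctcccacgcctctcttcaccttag

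Pi16 (ENSMUSG00000024011, chromosome 17 from 29317680 to 29330593 on GRCm38), the peptidase inhibitor that marks the progenitor state, stood at 135, 145, 182 and 199 CPM in the monocultures and 1179, 1119 and 1327 in the IL13KO cocultures. All 3 cocultures lay far above all monocultures, for a log2 fold change of 2.87 ± 0.16 (adjusted p = 1.25e-07) and of 1.46 ± 0.15 with the trends removed. The WT coculture stood at 1293 ± 253 CPM, and its difference from the IL13KO coculture was not called (-0.10 ± 0.16, adjusted p = 0.71).

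Not all progenitor markers followed. Of 19 tested, Pi16 included, 10 rose and 1 fell as counted, and 11 rose and 5 fell with the trends removed (median 0.29 and 0.50). With upper-quartile scaling 9 rose and 5 fell. Emilin2, a matrix glycoprotein gene, rose from 18.3 ± 4.63 to 195 ± 17.3 CPM and Cd248, which encodes endosialin, from 23.7 ± 12.9 to 368 ± 37.6, and both stayed higher with the trends removed (1.84 ± 0.13 and 2.39 ± 0.16). Dpp4, a second marker of the state, stood at 15.03, 16.1, 5.07 and 11.5 CPM in monoculture and 9.36, 6.02 and 4.71 in the IL13KO coculture. The groups overlapped and the difference was not called (-0.83 ± 0.35, adjusted p = 0.0545). It was called lower with DESeq2 (adjusted p = 0.0396), with upper-quartile scaling (0.0317), with the length trend alone removed (0.00337), and without monoculture 3 (0.00302) or IL13KO coculture 1 (0.0294). Anxa3 fell in both fits (-0.66 ± 0.12 and -0.37 ± 0.091), whereas Ly6a, Procr and Ackr3 were not called as counted (-0.25, -0.056 and -0.34). Cd34 rose from 10.7 ± 3.797 to 19.6 ± 2.67 CPM, well below its 239 ± 24.1 with WT ILC2s. Of the 19 markers 7 were lower than in the WT coculture and 3 higher.

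Markers of the Col15a1 state split. Of 16 tested, 9 rose and 6 fell as counted, and 3 rose and 6 fell with the trends removed, where the median turned from 0.56 to -0.14. Col15a1, a collagen of the basement membrane zone, stood at 21.03, 14.9, 26.1 and 15.05 CPM in monoculture and 111, 149 and 107 in the IL13KO coculture, apart in every library (2.68 ± 0.28; 0.94 ± 0.21 with the trends removed). Spon1, a secreted matrix protein gene, rose from 26.8 ± 3.99 to 106 ± 7.301 CPM in both fits. On the falling side were Inmt, a methyltransferase gene (16.6 ± 2.62 to 2.57 ± 0.845), the lipid carrier gene Fabp4 (93.9 ± 14.9 to 30.1 ± 3.69), Mgp (65.4 ± 4.79 to 20.5 ± 5.28), Apoe (813 ± 112 to 467 ± 65.3) and Lpl (818 ± 54.6 to 491 ± 86.8). Of the 16, 13 were higher in the IL13KO than in the WT coculture and 1 was lower.

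In the list of fibrillar collagens 10 of 12 tested rose and 0 fell as counted, with a median of 1.64, but with the trends removed 4 rose and 1 fell, with a median of 0.27. The list also holds Col16a1, of a fibril-associated collagen, which is among the rises in both fits (3.23 ± 0.29 and 1.25 ± 0.22). Col1a1 (ENSMUSG00000001506, chromosome 11 from 94936224 to 94953042), the α1 chain of collagen I, had 951, 817, 1682 and 829.6 CPM in monoculture and 11334, 12987 and 10389 in the IL13KO coculture. Every coculture stood several-fold above monoculture 3, the highest of the monocultures and the one with the highest GC balance (3.44 ± 0.27; 1.52 ± 0.12 with the trends removed). Col1a2 (chromosome 6 from 4504814 to 4541544), the α2 chain, had 1476, 1538, 2272 and 1736 CPM in monoculture and 2796, 2793 and 2382 in the IL13KO coculture, so that the groups stood close without overlapping. It rose by 0.60 ± 0.13 as counted and fell with the trends removed (-1.07 ± 0.10, adjusted p = 3.15e-06).

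Collagen I is assembled from both chains, and their ratio in reads moved with the group. Reads of Col1a1 per read of Col1a2 were 0.644, 0.531, 0.740 and 0.478 in the monocultures, 4.05, 4.65 and 4.36 in the IL13KO cocultures, and 4.29, 3.65 and 2.13 in the WT cocultures. Both transcripts are long and rich in GC (58.9% over 5930 bases and 55.7% over 5348 bases),. Col3a1, of the collagen that accompanies collagen I, rose from 2125 ± 552 to 7402 ± 1049 CPM, Col5a2 from 248 ± 51.5 to 689 ± 68.8, and both held with the trends removed (0.57 ± 0.16 and 0.71 ± 0.13). Col5a1 rose as counted and was not called after correction (1.92 ± 0.26 and 0.022 ± 0.18).

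Genes that process and crosslink collagen rose in 18 of 18, with a median of 1.53. With the trends removed 11 rose and 1 fell (median 0.52). Lox, the lysyl oxidase that starts crosslinking, stood at 706, 711, 786 and 754 CPM in monoculture and 2080.4, 2100.3 and 2216 in the IL13KO coculture, with narrow groups, and its change was alike in both fits (1.53 ± 0.079 and 1.53 ± 0.077). Pcolce2, an enhancer of procollagen cleavage, rose from 32.5 ± 4.49 to 199 ± 18.2 CPM, Bmp1, a procollagen protease, from 51.98 ± 14.6 to 445 ± 52.3, and Loxl1 from 110.1 ± 44.8 to 1983 ± 89.9. Both Lox and Pcolce2 were higher again in the WT coculture (4678 ± 278 and 488 ± 9.21 CPM), with log2 differences of -1.13 ± 0.085 and -1.29 ± 0.12 (IL13KO minus WT). Serpinh1, the collagen chaperone HSP47, had 5203, 8703, 8134 and 8567 CPM in monoculture, library 1 being the lowest, and 11094, 10666 and 10433 in the IL13KO coculture, and went from 0.49 ± 0.15 as counted to -0.36 ± 0.10 with the trends removed, called in both.

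Elastic fibre and microfibril genes rose in 8 of 16 and fell in 2 as counted, and rose in 6 and fell in 8 with the trends removed. Emilin1, which binds elastic fibres, rose from 11.9 ± 5.05 to 151 ± 12.1 CPM, Fbln2 from 442 ± 149 to 2353 ± 343 and Ltbp1, a latent TGF-β binding protein gene, from 32.5 ± 5.32 to 126 ± 14.01. Ltbp1 was at 30.2 ± 2.87 CPM in the WT coculture, close to monoculture. Mfap5 and Mfap4, microfibril-associated genes, fell (2185 ± 229.6 to 1184 ± 60.9 and 72.2 ± 9.004 to 28.3 ± 6.23 CPM). Fbn1, the gene of fibrillin-1, was higher as counted and lower with the trends removed (0.79 ± 0.17 and -0.51 ± 0.13).

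Small leucine-rich proteoglycans, which coat collagen fibrils, rose in 4 of 9 and fell in 5, and with the trends removed 1 rose and 3 fell. Aspn (ENSMUSG00000021388, chromosome 13 from 49544443 to 49567565) had 254, 128, 147 and 211 CPM in monoculture and 17.7, 20.8 and 19.1 in the IL13KO coculture, every coculture lying below every monoculture (-3.27 ± 0.22, adjusted p = 4.27e-07; -2.63 ± 0.15 with the trends removed). Ogn, or osteoglycin, fell from 498 ± 86.00 to 203 ± 18.5 CPM and Lum, or lumican, from 635 ± 201 to 234 ± 14.7, in both fits. Dcn, or decorin, fell as counted but was not called after correction (-0.62 ± 0.18 and -0.17 ± 0.15). Prelp rose from 217 ± 49.6 to 632 ± 89.3 CPM in both fits, and Bgn, Fmod and Podn rose only as counted. In 7 of the 9 the IL13KO coculture was higher than the WT coculture, Dcn at 1650.2 ± 238 against 369 ± 64.9 CPM and Lum at 234 ± 14.7 against 49.05 ± 0.933.

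Basement membrane genes rose in 12 of 17 and fell in 0 (median 1.27), and with the trends removed 3 rose and 2 fell (median 0.19). The 3 that kept the call were Lamb1 (63.6 ± 18.6 to 304 ± 36.7 CPM), Lama4 (35.05 ± 9.05 to 104.8 ± 9.87), both laminin chains, and Col4a5 (4.100 ± 1.804 to 14.1 ± 2.07). Among matrix proteases and inhibitors 9 of 17 rose and 4 fell, and 9 rose and 5 fell with the trends removed. Adamts1 rose from 27.03 ± 6.51 to 153 ± 5.13 CPM, Adamts4 from 9.17 ± 1.72 to 70.9 ± 1.13, Mmp14, a membrane collagenase, from 53.4 ± 21.6 to 282 ± 36.9, and Timp1, an inhibitor of these enzymes, from 564 ± 37.5 to 1041 ± 38.9. The stromelysin genes Mmp3 (2094 ± 409 to 1301 ± 201 CPM) and Mmp10 (42.4 ± 5.59 to 21.3 ± 3.32) fell in both fits and were far lower in the WT coculture (116 ± 23.01 and 2.36 ± 0.142).

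**Figure D4:**
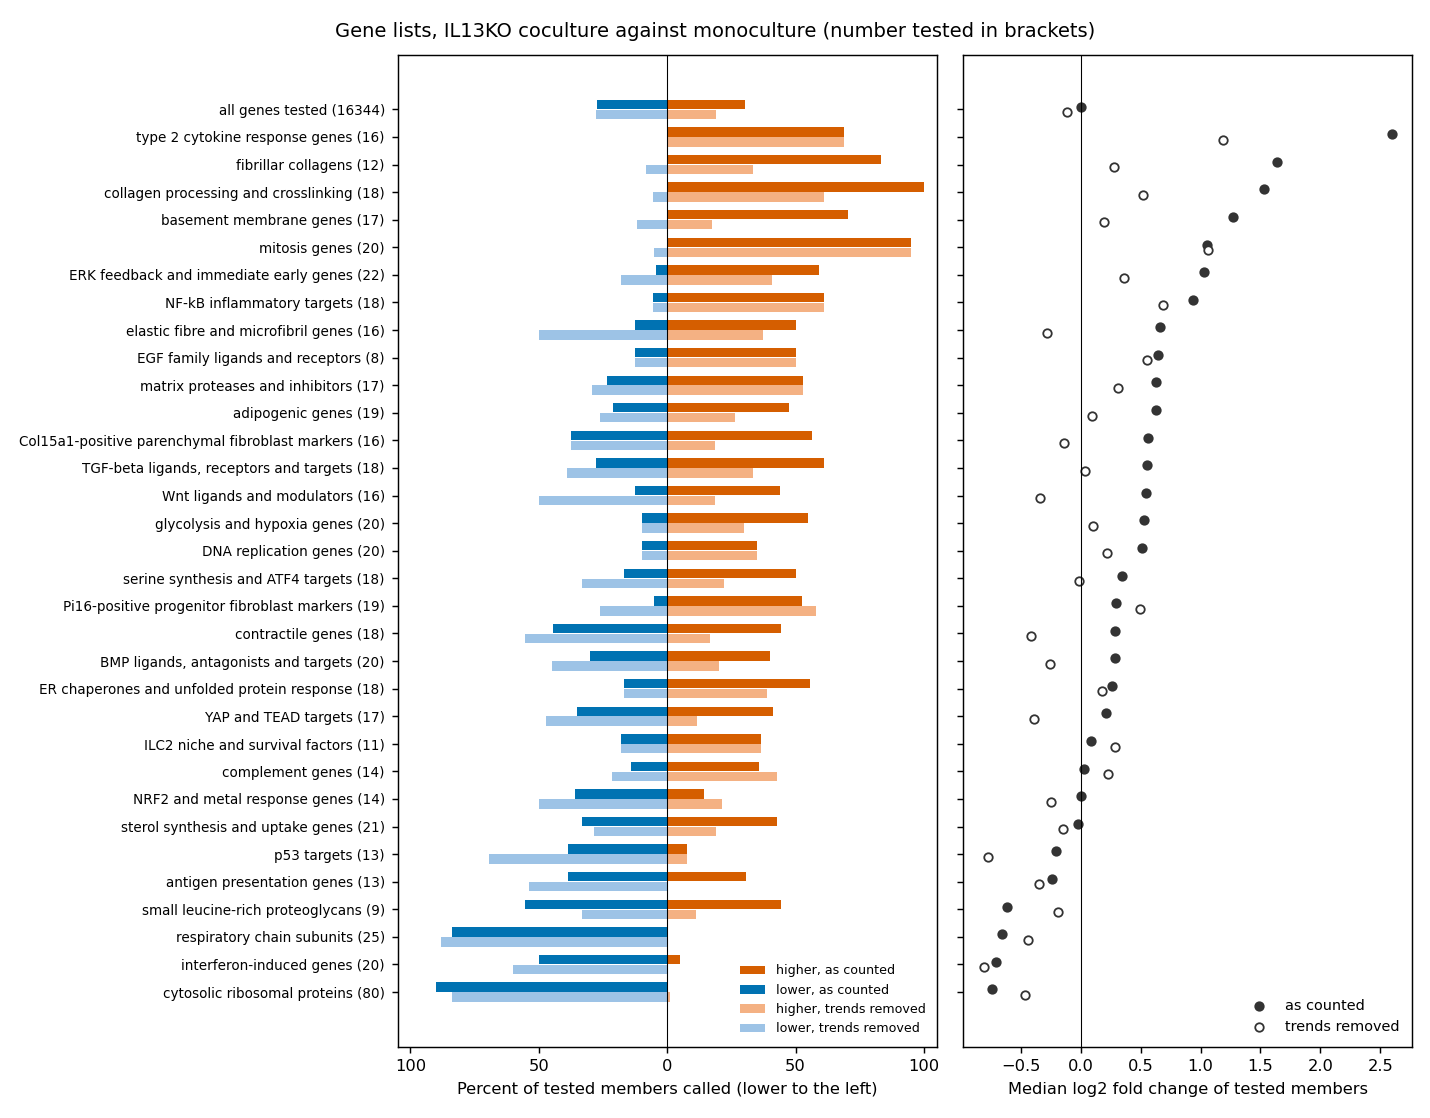
For each gene list the left panel gives the percentage of tested members called higher (right of 0) or lower (left of 0), and the right panel the median log2 fold change, as counted and with the trends removed. Among the pathway lists type 2 cytokine response genes have the highest median in both fits (2.60 and 1.19). When the trends are removed, the median of the fibrillar collagen list moves from 1.64 to 0.27 and that of the elastic fibre genes from 0.66 to -0.29.

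Growth factor and developmental pathways gave mixed counts. BMP ligands, antagonists and targets rose in 8 of 20 and fell in 6, and with the trends removed 4 rose and 9 fell. Id3, an inhibitor of differentiation and a direct BMP target, stood at 1864, 2082, 2029.9 and 2039 CPM in monoculture and 903, 805 and 747 in the IL13KO coculture, with no overlap (-1.29 ± 0.094; -1.31 ± 0.086 with the trends removed). Id1 and Id2 also fell (-1.23 ± 0.12 and -1.03 ± 0.083), as did the receptor gene Bmpr1a from 142 ± 11.3 to 64.5 ± 2.27 CPM. Grem1, a secreted BMP antagonist, fell from 92.6 ± 6.997 to 41.6 ± 12.3 CPM. For Id1, Id2, Id3, Bmpr1a and Grem1 the WT coculture was lower again, at 61.5, 190.1, 219, 43.1 and 2.97 CPM.

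TGF-β ligands, receptors and targets rose in 11 of 18 and fell in 5, and with the trends removed 6 rose and 7 fell. The receptor genes Tgfbr2 (51.6 ± 14.6 to 181 ± 10.3 CPM) and Tgfbr3 (74.99 ± 13.01 to 202 ± 17.02) and the secreted target Tgfbi (12.9 ± 1.695 to 37.04 ± 2.800) rose in both fits. Smad7, an inhibitor induced by the pathway, was not called as counted and was lower with the trends removed (-0.10 ± 0.16 and -1.79 ± 0.16). Contractile genes rose in 8 of 18 and fell in 8, and 3 rose and 10 fell with the trends removed. Acta2, or smooth-muscle actin, fell from 1156 ± 97.2 to 875 ± 156 CPM, Tagln from 408 ± 25.8 to 262 ± 41.2 and Cald1 from 1417 ± 97.97 to 887 ± 10.6. Mrtfa, a coactivator of such genes, rose from 2.97 ± 1.62 to 40.1 ± 3.105 CPM and Smtn from 5.29 ± 2.91 to 51.2 ± 4.12, in both fits.

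Of YAP and TEAD targets 7 of 17 rose and 6 fell, and 2 rose and 8 fell with the trends removed, with Ccn2, or CTGF, falling from 47.6 ± 12.4 to 28.2 ± 4.71 CPM. Axl, a receptor kinase gene that is also listed as a progenitor marker, rose from 68.1, 67.5, 103 and 72.9 to 515, 515 and 527 CPM (2.74 ± 0.21; 1.41 ± 0.14 with the trends removed), and its groups did not overlap. Among Wnt genes 7 of 16 rose and 2 fell, and 3 rose and 8 fell after correction. Fzd1, a Wnt receptor gene, rose in both fits (2.11 ± 0.16 and 0.55 ± 0.14), and Rspo3, an amplifier of Wnt signalling, fell in both (-0.85 ± 0.12 and -0.65 ± 0.10).

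Immediate early genes and ERK feedback genes rose in 13 of 22 and fell in 1, and with the trends removed 9 rose and 4 fell. Junb, an AP-1 subunit, had 23.1, 45.5, 83.3 and 35.01 CPM in monoculture and 651, 623 and 579 in the IL13KO coculture, and the lowest coculture stood well above monoculture 3, the highest monoculture (3.73 ± 0.32; 2.71 ± 0.22 with the trends removed). Jun rose from 30.1 ± 9.49 to 149 ± 8.03 CPM, while Fos was not called (-0.13 ± 0.18). Of EGF family genes 4 of 8 rose and 1 fell in both fits. They included the receptor Egfr (50.5 ± 9.74 to 116 ± 12.8 CPM), its relative Erbb2 (1.95 ± 0.406 to 17.7 ± 1.96) and their feedback inhibitor Errfi1 (49.9 ± 9.82 to 167 ± 10.4).

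Mitosis genes rose in 19 of 20 and fell in 0, with a median of 1.05, and with the trends removed 19 rose and 1 fell, with a median of 1.06. Plk1, a kinase of mitotic entry, stood at 4.65, 7.85, 3.13 and 7.24 CPM in monoculture and 24.2, 25.97 and 34.2 in the IL13KO coculture, the groups lying apart (2.28 ± 0.24; 1.52 ± 0.23 with the trends removed). Cenpe, a kinetochore motor, rose from 0.283 ± 0.262 to 2.91 ± 0.715 CPM and Prc1, which organises the central spindle, from 19.1 ± 4.39 to 46.1 ± 12.98. The exception was Cdk1, the kinase that drives mitosis, which was not called as counted (-0.053 ± 0.11) and lower with the trends removed (-0.42 ± 0.12). With the length trend alone removed, 11 of the 20 rose and 1 fell.

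Genes of DNA replication moved less. Of 20 tested, 7 rose and 2 fell in each fit, with the helicase subunit Mcm2 rising from 5.46 ± 3.52 to 30.04 ± 5.17 CPM and Mcm5 from 5.69 ± 2.92 to 22.3 ± 6.81. Pcna, the sliding clamp, fell from 66.8 ± 6.75 to 46.1 ± 6.11 CPM as counted. Without monoculture 3, 11 rose and 4 fell, and with the length trend alone removed the median turned from 0.51 to -0.15. In the IL13KO coculture all 20 mitosis genes and 18 of the 20 replication genes were lower than in the WT coculture, against 11.6% of all genes. Plk1 stood at 85.2 ± 8.08 CPM and Mcm2 at 71.8 ± 1.901 with WT ILC2s.

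Among p53 targets 1 of 13 rose and 5 fell, and 1 rose and 9 fell with the trends removed. Cdkn1a, the cell-cycle inhibitor p21, had 204, 189, 232 and 207 CPM in monoculture and 87.9, 85.5 and 90.9 in the IL13KO coculture, below every monoculture (-1.24 ± 0.10; -1.68 ± 0.11 with the trends removed). Trp53inp1 fell from 32.5 ± 3.16 to 15.7 ± 0.302 CPM, and Bbc3, the death effector PUMA, rose from 1.51 ± 0.271 to 8.47 ± 1.07.

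Glycolysis and hypoxia genes rose in 11 of 20 and fell in 2, and 6 rose and 2 fell with the trends removed. Slc16a3, a lactate exporter, had 2.79, 7.26, 16.04 and 4.85 CPM in monoculture and 117, 119.9 and 166 in the IL13KO coculture (4.14 ± 0.40; 2.54 ± 0.29 with the trends removed), with monoculture 3 the highest of its group but far below the cocultures. Hk1, a hexokinase gene, rose from 8.56 ± 2.26 to 56.9 ± 3.32 CPM and Ldha, lactate dehydrogenase, from 904 ± 86.5 to 1284 ± 128, in both fits, whereas Pkm, pyruvate kinase, rose only as counted (1.08 ± 0.16 and -0.051 ± 0.10). Vegfa was not called (0.25 ± 0.21). None of the 20 was higher and 14 were lower than in the WT coculture, with Slc16a3 at 426 ± 121 CPM there.

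In the endoplasmic reticulum list 10 of 18 rose and 3 fell, and 7 rose and 3 fell after correction. Hyou1, a chaperone, rose from 5.03 ± 2.43 to 46.03 ± 8.36 CPM and Edem1, a factor in the disposal of misfolded proteins, from 57.1 ± 3.74 to 244 ± 33.2, while Hspa5, the chaperone BiP, was not called (0.20 ± 0.10) and Dnajb9 fell (-0.78 ± 0.11). Of serine synthesis and ATF4 target genes 9 of 18 rose and 3 fell, and 4 rose and 6 fell after correction. Cebpg, a partner of ATF4, had 144, 138, 88.1 and 122 CPM in monoculture and 30.5, 28.4 and 33.1 in the IL13KO coculture, a fall of similar size in both fits (-2.003 ± 0.18 and -1.94 ± 0.16). Sesn2 rose from 9.03 ± 3.76 to 65.8 ± 6.34 CPM and Ddit3, the factor CHOP, fell from 64.4 ± 7.899 to 32.3 ± 0.975.

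Sterol genes rose in 9 of 21 and fell in 7, and 4 rose and 6 fell after correction. Srebf2, the regulator of the pathway, rose from 13.6 ± 3.07 to 74.4 ± 10.5 CPM in both fits, while Msmo1 and Fdft1, enzymes of synthesis, fell (-0.58 ± 0.094 and -0.36 ± 0.088). Adipogenic genes rose in 9 of 19 and fell in 4, and 5 rose and 5 fell after correction. Cebpb rose from 8.53 ± 1.601 to 58.6 ± 22.8 CPM and the desaturase gene Scd1 from 136 ± 21.6 to 349 ± 16.9. Pparg, the central regulator, fell from 75.02 ± 8.33 to 56.5 ± 6.06 and Cd36, a fatty acid receptor, from 3.89 ± 2.64 to 0.662 ± 0.527. Of NRF2 and metal response genes 2 of 14 rose and 5 fell, and 3 rose and 7 fell after correction, with Gsta4 falling from 8.07 ± 1.098 to 2.25 ± 0.485 CPM.

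Interferon-induced genes fell in 10 of 20 and rose in 1, with a median of -0.71, and with the trends removed 12 fell and 0 rose (median -0.81). Isg15, a ubiquitin-like modifier, stood at 12.3, 36.5, 10.3 and 8.79 CPM in monoculture and 7.599, 3.01 and 3.97 in the IL13KO coculture, and all cocultures lay below all monocultures (-1.81 ± 0.54; -1.52 ± 0.51 with the trends removed). Usp18, which removes that modifier, had 11.6, 26.2, 13.4 and 14.3 CPM in monoculture, monoculture 2 being the highest, and 5.67, 4.72 and 6.18 in the IL13KO coculture (-1.57 ± 0.29). Ifit1, Ifit3 and the guanylate-binding Gbp3 fell (-2.09 ± 0.60, -1.84 ± 0.40 and -1.67 ± 0.36), and Stat2, which carries the interferon signal, rose as counted only (1.49 ± 0.28; 0.50 ± 0.27 with the trends removed). Irf1 and Iigp1 were not called (0.06 and 0.017). Monoculture 2 was the highest library for Isg15, Ifit1, Usp18 and Bst2, and Isg15 stood at 8.79 to 12.3 CPM in the other monocultures. Without monoculture 2 Ifit1 stood at -1.37, and Rtp4, another of the 10 largest falls, at -1.49 in place of -2.296. In that fit 10 of the 20 fell and 1 rose, with a median of -0.56.

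Antigen presentation genes rose in 4 of 13 and fell in 5, and 0 rose and 7 fell after correction. B2m, the light chain of class I molecules, had 907, 1026, 868 and 834 CPM in monoculture and 376, 379 and 334 in the IL13KO coculture, apart in every library (-1.32 ± 0.14; -0.85 ± 0.13 with the trends removed). The heavy chain gene H2-D1 rose as counted (0.51 ± 0.16) and H2-K1 was not called (0.065 ± 0.11). Tapbp, a loading factor, was higher as counted and lower after correction (1.02 ± 0.15 and -0.29 ± 0.10). Of complement genes 5 of 14 rose and 2 fell, and 6 rose and 3 fell after correction. C3, the central component, rose from 41.3, 16.3, 29.6 and 20.95 to 291, 279 and 219 CPM and C4b from 7.91 ± 1.77 to 57.4 ± 8.96, C4b standing at 10.5 ± 2.903 in the WT coculture, and Cfd, or adipsin, fell from 2.15 ± 2.12 to 0.303 ± 0.182.

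Of the list of ILC2 niche and survival genes 4 of 11 rose and 2 fell, in both fits. The rises include Csf1 and Ptgis (39.9 ± 14.4 to 93.3 ± 2.06 CPM), so they are not of ILC2-sustaining factors alone. Il33 (ENSMUSG00000024810, chromosome 19 from 29925114 to 29960718), the alarmin that activates ILC2s, had 397, 372, 218 and 304 CPM in monoculture and 667, 610.0 and 605 in the IL13KO coculture, without overlap, and its change was larger with the trends removed (0.96 ± 0.17 and 1.32 ± 0.14). In the WT coculture it stood at 327 ± 45.7 CPM, lower than in the IL13KO coculture by a called difference (0.94 ± 0.18, IL13KO minus WT). Csf1, the macrophage growth factor, rose from 226 ± 67.9 to 1050.2 ± 23.4 CPM, and Kitl, or stem cell factor, from 81.7 ± 20.4 to 177 ± 15.7. Il7 and Tslp, further ILC2 factors, were at 2.64 and 1.04 CPM in monoculture and were not called (0.086 and -1.06). Il18 fell from 5.13 ± 1.14 to 2.23 ± 0.486 CPM.

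Short, abundant housekeeping transcripts fell together. Of 80 cytosolic ribosomal protein genes 0 rose and 72 fell (median -0.74), and with the trends removed 1 rose and 67 fell (median -0.47). Respiratory chain subunits, encoded in the nucleus, rose in 0 of 25 and fell in 21 (median -0.66), and fell in 22 after correction (median -0.44). Uqcrb, of complex III, had 222, 222, 221 and 229 CPM in monoculture and 93.2, 101 and 110.3 in the IL13KO coculture (-1.14 ± 0.11; -0.65 ± 0.086 with the trends removed). Cox7c and Ndufb3 fell by similar amounts (-0.97 ± 0.10 and -1.08 ± 0.11). The ribosomal protein transcripts have a median length of 910 bases and the respiratory ones of 765, against 2650 over all genes tested. By decile of mean expression, 50% of genes fell in the highest and 7.34% in the lowest.

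Transcript classes differed too. Of 1567 processed pseudogenes, intronless copies of other genes, 110 rose and 652 fell (median -0.49), and 185 rose and 276 fell after correction, and their reads can come from the parent genes. Among 877 antisense genes 304 rose and 136 fell, and 335 rose and 94 fell after correction. Whether the counting used strand is not given in the sources used here, and without strand their reads cannot be told from those of the genes they overlap. Of 319 lincRNA genes 41 rose and 68 fell, and 43 rose and 43 fell after correction.

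The 10 largest rises among abundant, separated genes mostly started from low levels. Atg9a, which moves membrane to autophagosomes, had 0, 0.444, 0.738 and 0.422 CPM in monoculture and 32.3, 38.99 and 30.6 in the IL13KO coculture (6.39 ± 0.44; 4.598 ± 0.35 with the trends removed), and 32.6% of its exon bases are shared with other genes. Csf2rb2, a receptor chain nearly identical to Csf2rb so that reads could be assigned to either, rose from 0.175 ± 0.261 to 11.96 ± 3.82 CPM. Car4, a carbonic anhydrase, rose from 0, 0.296, 0.184 and 0.281 to 11.1, 15.7 and 13.7 CPM, with no overlap, but stood at 623 ± 115 in the WT coculture (-5.53 ± 0.21, IL13KO minus WT). Rtn4rl2, a Nogo receptor relative, rose from 2.02 ± 0.8303 to 118 ± 15.9 CPM and was higher than in the WT coculture (1.04 ± 0.22). So was Adra1d, an adrenergic receptor (0.502 ± 0.299 to 17.6 ± 7.16 CPM; 1.900 ± 0.43). S1pr3, a receptor for sphingosine 1-phosphate and the most abundant of the 10, had 10.8, 24.4, 24.3 and 21.8 CPM in monoculture, monoculture 1 being lowest, and 437, 508 and 585 in the IL13KO coculture (4.65 ± 0.23). Map3k11, a kinase gene, rose by 4.92 ± 0.35. Pcdhgb6 and Pcdhgc5 belong to a protocadherin cluster whose genes share exons (45.2% and 39.6% of their exon bases), so their changes are uncertain (4.97 ± 0.53 and 4.801 ± 0.68). With Dctn1, described with its partners, all 10 stayed higher with the trends removed, at 2.91 to 6.23. Genes at 0 or a few reads in monoculture make such folds uncertain in size.

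The 10 largest falls were smaller. Beside Aspn, Inmt and Ifit1 they included Wdr72, which had 11.1, 11.8, 7.099 and 12.3 CPM in monoculture and 0.6805, 1.76 and 1.53 in the IL13KO coculture (-2.99 ± 0.36). Nrep had 208, 122, 123 and 167 CPM in monoculture and 23.3, 25.1 and 28.2 in the IL13KO coculture, every coculture being far below the monocultures (-2.600 ± 0.19; -2.35 ± 0.16 with the trends removed). Ctla2a, an inhibitor of cysteine proteases, fell from 295, 206, 221 and 206 to 53.5, 46.4 and 30.3 CPM and had only 5.22 ± 0.899 in the WT coculture. Zrsr1, a splicing factor gene (11.7 ± 2.26 to 1.95 ± 0.331 CPM), Mamdc2, a matrix protein gene (18.04 ± 2.03 to 3.65 ± 1.37), and Snhg12, a host of small nucleolar RNAs (10.3 ± 2.44 to 2.35 ± 0.256), fell in the same way. Rtp4 (10.9, 47.3, 9.96 and 14.5 to 4.88, 3.86 and 3.91 CPM), which interferon induces, was highest in monoculture 2, as Ifit1 was. All 10 stayed lower with the trends removed, at -3.14 to -1.79.

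**Figure D5:**
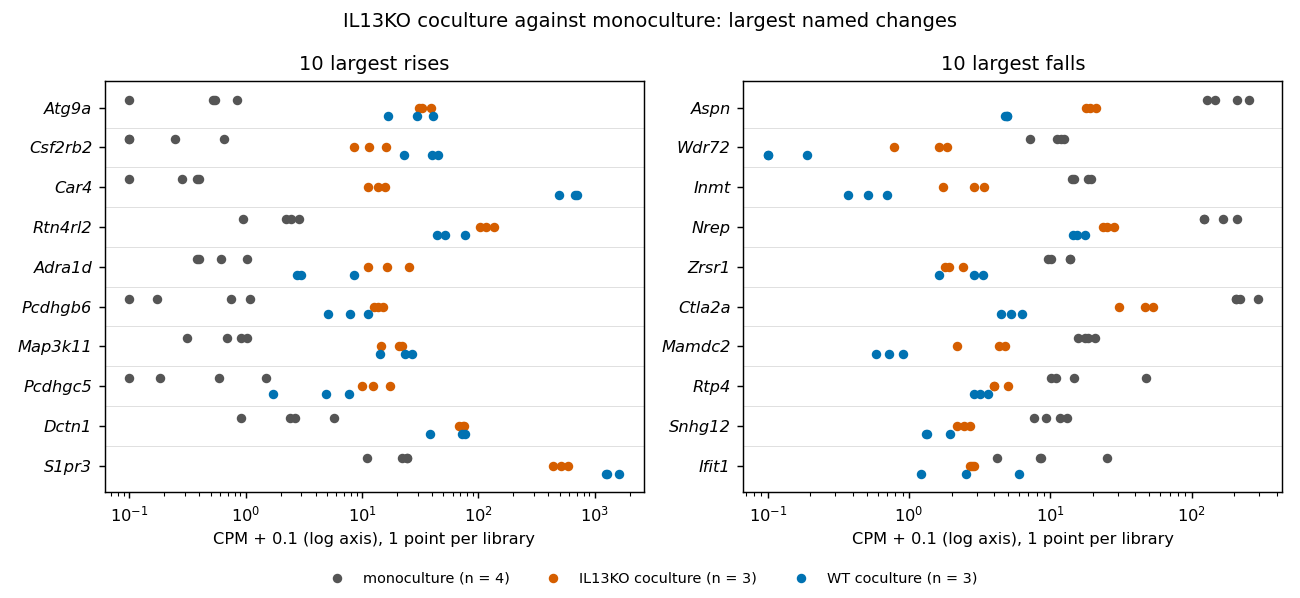
Points are CPM + 0.1 of single libraries on a log axis for the 10 largest named rises (left) and falls (right), in monocultures (grey, n = 4), IL13KO cocultures (orange, n = 3) and WT cocultures (blue, n = 3). IL13KO cocultures lie apart from the monocultures for all 20 genes, and for Car4, Csf2rb2, S1pr3, Aspn, Inmt, Ctla2a, Wdr72, Nrep, Mamdc2, Rtp4 and Snhg12 they lie between the monocultures and the WT cocultures.

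The 5 most abundant genes that the 2 fits called in opposite directions were Serpinh1, Col1a2 and the following 3. They are Igfbp4, which binds insulin-like growth factors (1077 ± 212 to 1943 ± 114 CPM; 0.85 ± 0.14 as counted and -0.54 ± 0.10 with the trends removed), Surf4, a cargo receptor of the secretory pathway (856 ± 162 to 1490.3 ± 48.4; 0.80 ± 0.14 and -0.34 ± 0.10), and Cxcl12, a chemokine of fibroblasts (805 ± 79.4 to 1029 ± 31.7; 0.35 ± 0.094 and -0.58 ± 0.11). For these genes the sign depends on whether the trends are taken to be part of the response, which was not tested.

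Subunits of the following assemblies, chosen after their values were seen, moved unequally. Dctn1, the largest subunit of dynactin, a partner of the dynein motor, stood at 2.28, 0.815, 5.62 and 2.53 CPM in monoculture and 68.6, 74.5 and 73.5 in the IL13KO coculture (4.72 ± 0.38; 2.91 ± 0.27 with the trends removed), the highest monoculture, 3, lying far below the cocultures. Its partners Dctn3, Dctn5 and Dctn6 fell (-0.81 ± 0.12, -0.75 ± 0.12 and -0.82 ± 0.13), Dctn2 rose by 0.86 ± 0.14 and Dctn4 was not called (0.0027 ± 0.087). The transcript of Dctn1 has 58.8% GC over 4321 bases, that of Dctn2 55.4% over 1784 and that of Dctn3 54.8% over 973. Actr1a and Actr1b, paralogs of its filament, rose alike as counted (1.47 ± 0.23 and 1.23 ± 0.22), and with the trends removed Actr1a was called and Actr1b was not (0.81 ± 0.16 and 0.093 ± 0.15). For collagen VI, Col6a1 (86.1 ± 27.1 to 926 ± 114 CPM) and Col6a2 (41.5 ± 15.7 to 339.7 ± 60.8) rose in both fits and Col6a3 only as counted (1.52 ± 0.29 and -0.054 ± 0.18). For collagen IV, Col4a2 rose in both fits (2.76 ± 0.24 and 0.80 ± 0.13) and Col4a1 only as counted (1.81 ± 0.31 and -0.042 ± 0.24).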

How the data were processed

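RNA was extracted from sorted fibroblasts and made into libraries with a low-input kit, per the labels' protocols, and sequenced in paired reads of 50 nt. The authors deposited raw counts per gene in one table, whose gene columns carry Ensembl identifiers on GRCm38. Trimmomatic 0.39, STAR 2.7.7a, Salmon 1.6.0, Picard, FastQC 0.11.9 and DESeq2 are named in the submitters' processing notes. The counter, its annotation and strand setting are not given in the sources used here. A deposited table of normalised values was not used, and 0 per-sample columns of the count table were left out. The WT columns carry other numbers than the sample titles, so they were matched to their group only.

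The counts were fitted with edgeR 4.0.16 in R 4.3.3 by the quasi-likelihood test, with TMM factors, over the genes that passed filterByExpr, in all 10 libraries with 1 coefficient per group, and every adjusted p comes from this tool with the Benjamini-Hochberg adjustment over all genes tested, called below 0.05. Log2 CPM used a prior count of 2. Trends were removed through offsets from a loess (span 0.4) of each library's log2 ratio to the mean over libraries on GC content and log10 length of the longest GENCODE M21 transcript. Symbols matched 22647 of 22731 identifiers, and GC content and length 22639. The fits of the comparison with monoculture were tested on simulated counts with known folds added. These counts held no trend with GC content or length, so the removal of such a trend was not tested, nor were the other steps. Replicates differed beyond counting noise, so none was treated as a duplicate.

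Genes were named by a rule: by fold the top 10 called genes in each direction with separated groups and a group mean of at least 10 CPM, up to 3 called members of each of 31 pathway and 13 marker lists by p, genes of interest from the design, and the 5 most abundant genes called in opposite directions. Other list members were named after their values were seen. Not every gene under the rule is reported here. The members, lists and rule were chosen with earlier results of these data known. Alternatives were other scalings (RLE, upper quartile, library totals), DESeq2 1.42.0, limma-voom 3.58.1, other filters, a fold threshold, thinning to equal depth, removal of either or both trends, leaving out ILC2 and leukocyte genes, each replicate in turn, and a replicate block.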

Additional observations from a re-analysis of the deposited data

Results flagged for a closer look

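In the 4 monocultures, 9 of 126 named genes had 1 library far from the other 3 on the scale of log2(CPM + 0.1), with a ratio of the gap to the range above Dixon's critical value, and none of 5 library measures did. Chance alone marks about 1 in 20 groups. Monoculture 1 was the low library for S1pr3 (ratio 0.859; 10.8 CPM against 21.8 to 24.4 in the others), for Erbb2 (0.867; 1.35 against 2.07 to 2.21), for Errfi1 (0.882; 35.3 against 53.7 to 56.8) and for Serpinh1 (0.869; 5203 against 8134 to 8703). Monoculture 3 was the high library for Il4ra (0.92; 76.2 CPM against 46.5 to 48.4) and for the junction protein gene Amotl2 (0.88; 62.6 against 39.5 to 41.7), and the low library for Kitl (0.851; 51.6 against 86.5 to 94.7). Monoculture 4 was high for Uqcrb (0.881; 229 against 221 to 222) and low for the transcription factor gene Sox9 (0.871; 33.5 against 41.1 to 42.4). For all 9 genes the IL13KO cocultures lay on the same side of all 4 monocultures, the odd library included.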

How the results depend on the processing

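The 9384 calls of the comparison with monoculture stayed between 8803 and 9753 under RLE, upper-quartile and total scaling, DESeq2, limma-voom, both other filters, the fit of only the 2 groups, thinning and the removal of ILC2 and leukocyte genes. Upper-quartile scaling moved the median of all genes to -0.10 and the lists of complement and ILC2 niche genes to medians of -0.080 and -0.020, and it called 4 genes of DNA replication lower in place of 2 and 5 ATF4 targets in place of 3. Higher calls were 52.5% of all, against 40.7% with the GC trend removed, 36.5% with the length trend removed and 40.8% with both, where 3124 were higher. A test against a fold of 1.5 called 4234 genes, 3092 higher and 1142 lower, and 1109 against the WT coculture, 571 higher and 538 lower. Only the 2 coculture groups gave 5806 calls (2933 higher, 2873 lower) where all libraries gave 3810.

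Leaving out 1 library at a time gave 7891 to 9727 calls (4375 to 5099 higher, 3516 to 4628 lower), 6235 to 7757 with the trends removed (2608 to 3167 and 3627 to 4590), and 2337 to 4814 against the WT coculture (1238 to 2426 and 1098 to 2388). The last fell by over 1.5 times without IL13KO coculture 1 (2482 calls), IL13KO coculture 2 (2337) or the WT column numbered 4 (2523), as did the higher calls without the WT column numbered 3 (1238).

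Same-numbered libraries did not deviate together (correlations of 0.00531, -0.0574 and -0.0511), which gives no sign of pairing by number. With so few libraries these values cannot exclude a shared animal or preparation. A replicate block gave 7448 calls, and 5739 with the trends removed, 2401 higher, where 6 of 17 NF-κB genes rose and 1 fell and Nfkb2 was not called (0.65). It was not run against the WT coculture, whose columns carry other numbers than the titles.

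Among genes named by the rule and called in the main fit or the alternative, direction turned only where a trend was removed. With GC removed Serpinh1 was at -0.32 and Col1a2 at -0.10, and with length removed Col1a2 at -0.064 and Cxcl12 at -0.31. With both removed, and in brackets with the replicate block as well, Tapbp was at -0.29 (-0.30), Notch3 -0.40 (-0.41), Des -0.12 (-0.26), Serpinh1 -0.36 (-0.30), Col1a2 -1.07 (-1.04), Igfbp4 -0.54 (-0.58), Surf4 -0.34 (-0.29) and Cxcl12 -0.58 (-0.50). The cause of the trends was not tested. Over all genes named by the rule and all settings, 3514 values kept direction and call or were uncalled in both fits, whatever their sign. Another 55 lost the call, 6 gained it, 5 of these for Dpp4, and 20 reversed. Genes under about 3 counts in a group allow no fold beyond their counting limits.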
